A study of Mus musculus with 24 samples.

Results

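The proteasome subunit genes examined here were the genes named Psma, Psmb, Psmc, Psmd, Psme, Psmf or Psmg followed by a number, without the immunoproteasome subunits Psmb8, Psmb9 and Psmb10, and with a mean of at least 1 CPM (the estimated count scaled to the total count of the library) over the 24 libraries. Of the 55487 genes in the table, 48 names matched and 43 met the rule. They were 14 genes of the 20S core, 17 of the 19S regulatory particle, 7 of dedicated assembly chaperones, 4 of other activators, and Psmf1, which encodes an inhibitor. Psma8, at 0 CPM, and Psmb11, at a mean of 0.0655 CPM, were left out for low values, and the member nearest to the threshold was Psmg4, at a mean of 10.6 CPM, so that no gene lay close to it. The libraries came from mouse embryonic fibroblasts (MEFs), a culture of connective tissue cells from embryos, of a wild-type line (WT) and of a line labelled Tfeb/Tfe3 KO, called tfeb tfe3 DKO or DKO below, after a pair of transcription factors that activate lysosomal and autophagy genes. Cells of each line received DMSO, the solvent, torin1, which inhibits the kinase MTOR, or MK-8722, a direct activator of AMPK, and each of the 6 groups had 4 libraries from cultures at passage 7, 8, 9 and 11 for WT and passage 8, 9, 10 and 11 for DKO. Each genotype was 1 line, so that an effect of the genotype and any other difference between the lines cannot be told apart, and p-values measure the spread between cultures of 1 line. The duration of treatment before RNA was taken was not given in the sources used here.

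The proteasome is the protease that degrades proteins tagged with ubiquitin. Its 20S core is a barrel of alpha rings, which gate the entrance, around beta rings, of which Psmb5, Psmb6 and Psmb7 carry the active sites, and its 19S particle recognises, unfolds and feeds in the substrate. In mammalian cells transcription factors such as NFE2L1 raise subunit genes together when proteasome activity is short, and MTOR signalling is among the inputs known to change proteasome levels.

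Promoter sequences of 5 members are given because the members moved together in the comparisons that follow while these 5 span the range of what was measured, with Psme3, Psmb3 and Psmb5 among those that fell with torin1, Psmd8, which rose with MK-8722 in WT, and Psmf1, which was higher with torin1 than with MK-8722. Each window holds 250 bases before and 50 bases after the transcription start in RefSeq on GRCm38.p6, read 5′ to 3′ on the strand of the gene. Capitals mark matches, on either strand, to CACGTG, the core of the E-box that TFEB and TFE3 bind, to TGACNNNGC, the antioxidant response element that NFE2L1 binds, to CCAAT, and to CCGGAAG, an ETS core.
Psme3 promoter, chr11:101315963-101316262, plus strand: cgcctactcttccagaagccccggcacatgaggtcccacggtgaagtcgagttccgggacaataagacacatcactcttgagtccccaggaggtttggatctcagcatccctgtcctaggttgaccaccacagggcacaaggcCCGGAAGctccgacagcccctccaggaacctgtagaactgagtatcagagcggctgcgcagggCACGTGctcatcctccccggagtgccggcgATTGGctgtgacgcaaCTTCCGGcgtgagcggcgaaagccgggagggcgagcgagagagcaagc
Psmb3 promoter, chr11:97703184-97703483, plus strand: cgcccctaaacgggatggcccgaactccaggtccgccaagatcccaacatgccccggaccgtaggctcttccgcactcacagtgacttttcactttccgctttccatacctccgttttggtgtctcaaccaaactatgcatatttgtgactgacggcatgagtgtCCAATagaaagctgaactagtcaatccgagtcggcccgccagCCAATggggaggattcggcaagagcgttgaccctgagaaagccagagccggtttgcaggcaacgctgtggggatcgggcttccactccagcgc
Psmb5 promoter, chr14:54617946-54618245, minus strand: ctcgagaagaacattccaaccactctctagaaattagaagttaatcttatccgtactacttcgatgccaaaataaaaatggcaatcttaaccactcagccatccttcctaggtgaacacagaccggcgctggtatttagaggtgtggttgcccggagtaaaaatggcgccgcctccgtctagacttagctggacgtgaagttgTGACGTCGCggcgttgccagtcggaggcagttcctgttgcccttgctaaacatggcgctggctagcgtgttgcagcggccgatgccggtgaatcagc
Psmd8 promoter, chr7:29180624-29180923, minus strand: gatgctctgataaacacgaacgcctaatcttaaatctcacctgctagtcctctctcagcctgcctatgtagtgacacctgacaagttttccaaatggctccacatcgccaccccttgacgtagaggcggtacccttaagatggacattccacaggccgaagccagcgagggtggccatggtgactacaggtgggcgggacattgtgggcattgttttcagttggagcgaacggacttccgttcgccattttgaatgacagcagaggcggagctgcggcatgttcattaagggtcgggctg
Psmf1 promoter, chr2:151741261-151741560, minus strand: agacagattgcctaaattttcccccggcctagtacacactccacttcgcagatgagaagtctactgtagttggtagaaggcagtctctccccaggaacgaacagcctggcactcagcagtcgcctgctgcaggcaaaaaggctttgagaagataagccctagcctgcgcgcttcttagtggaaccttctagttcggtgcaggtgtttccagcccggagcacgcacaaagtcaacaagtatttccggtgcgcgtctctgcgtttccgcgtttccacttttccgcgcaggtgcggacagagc
In these windows CACGTG stood at position -44 from the start in Psme3, TGACNNNGC at -47 in Psmb5, and CCAAT at -85 and -43 in Psmb3, while none of the 4 motifs stood in the windows of Psmd8 and Psmf1. The Psmf1 window lay inside the gene as annotated by GENCODE, whose 5′ end was at 151744186. The sequence at that end was not searched.

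A promoter was in the table for 36 of the 43 members, and the others were Psmb1, Psmb2, Psmb7, Psmc3, Psmd3, Psmd7 and Psmg2. CACGTG was found in 3 of the 36 (8.33%; Psma4, Psmd9 and Psme3), against 11.6% of the 10562 tested genes with a promoter in the table and 7.15% of all 32851 promoters of this length. The shares of members and of tested genes count genes with the motif in any of their promoters. The share of all promoters counts single promoters and is therefore not a like measure. TGACNNNGC was found in 6 (16.7%; Psmb5, Psmb6, Psmc6, Psmd12, Psmd9 and Psme4), against 16.6% of tested genes and 12.4% of all promoters. CCAAT was found in 12 (33.3%), against 43.5% and 37.4%. CCGGAAG was found in 14 (38.9%), against 20% and 8.86%. The motifs were searched separately, matches of different motifs could overlap, and a match is a description of the sequence, not a bound site.

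All 43 members passed the filter on low counts and were tested among 15401 genes with edgeR's quasi-likelihood test, all 24 libraries in 1 fit. A gene was called at a Benjamini-Hochberg adjusted p under 0.05 together with a fold change of at least 1.2, and CPM values from here on were scaled with edgeR's TMM factors. The total counts of the libraries ranged from 24668921 to 33332562. The RNA integrity number was 7.9 in DKO MK-8722 replicate 3 and 9.7 to 9.9 in all other libraries. The mRNA of Tfeb was at 20.9 to 24.97 CPM in WT with DMSO and at 1.95 to 2.65 CPM in DKO, a log2 fold change of -3.35 ± 0.095 (SE, edgeR adjusted p 4.09e-18), while Tfe3 mRNA, at 119 to 122 and 121 to 126 CPM, did not pass the test (edgeR adjusted p 0.279). A count does not show whether an mRNA still encodes the protein, and DKO below stands for the libraries labelled so. Of 11 fibroblast markers, Col1a1, Fn1 and Vim were at 795 CPM or more, without TMM scaling, in all libraries. On this scale Col1a2 and S100a4 were at 203 CPM or more, and Pdgfrb at 30 CPM or more. Col3a1 ranged from 9.17 to 55.4 CPM, Pdgfra from 4.31 to 172 CPM and Dcn from 0 to 1.24 CPM. Lum was under 0.5 CPM in all libraries. Thy1 was at 0 CPM in the 4 DKO libraries with DMSO, against 2.58 to 3.82 CPM in WT. Of 10 tested, 4 were called higher and 3 lower with torin1 in WT, and 3 higher and 2 lower in DKO. Between the lines with DMSO, 3 were higher and 3 lower in DKO. Over all tested genes these shares were 26.6% and 20.5%, 23% and 20.2%, and 23.5% and 24.6%. Of the markers of endothelium, leukocytes, muscle and neural cells, Pecam1, Cdh5, Ptprc, Cd3e, Myod1, Myh3, Rbfox3 and Gfap stayed under 0.5 CPM in all libraries. The remaining marker of each list did not. Without TMM scaling, Kdr (endothelium) reached 1.18 CPM, Cd68 (leukocytes) 14.6 CPM and Des (muscle) 7.41 CPM, and Tubb3 (neural) ranged from 10.4 to 37.7 CPM. With torin1 in WT, Kdr, Cd68 and Des were called higher and Tubb3 lower. Des and Tubb3 were also called lower in DKO than in WT with DMSO. The sums that follow were made without TMM scaling. The 4 epithelial markers Cdh1, Epcam, Krt8 and Krt18 summed to 2.76 to 4.66 CPM in WT with DMSO and 5.95 to 7.96 CPM with torin1, and in DKO to 2.86 to 4.70 CPM and 9.70 to 14.4 CPM. With torin1, 3 of the 4 were called higher in WT and 2 in DKO. The summed leukocyte list, nearly all of it Cd68, was higher in drug-treated WT libraries, at 10.2 to 14.7 CPM for MK-8722 and 4.45 to 6.84 CPM for torin1 against 1.56 to 2.26 CPM for vehicle. In DKO it was at 7.54 to 10.9 CPM, 4.69 to 8.50 CPM and 3.89 to 5.86 CPM in the same order. The part of these markers in the results was not tested.

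The 3 WT libraries of passage 11 stood apart, 1 in each treatment. In them 12 interferon-stimulated genes summed, without TMM scaling, to 2205 to 2769 CPM, against 400.7 to 828 CPM in the other 9 WT libraries and 1934 to 3416 CPM in the 12 DKO libraries. Among the proteasome genes this touched the interferon-inducible ones. Psmb8 was at 59.3 to 61.8 CPM in these 3 libraries and at 6.88 to 15.8 CPM in the other WT libraries, and Psme1 and Psme2 behaved alike, as their values show further on. Results for the interferon-inducible genes are given with and without these libraries.

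Levels per transcript length were similar for the subunits of the core and the regulatory particle and lower for the assembly chaperones and Psmf1. In WT cells with DMSO the mean TPM, which is per transcript length and a share of all transcripts, of the 14 core genes ranged from 115 to 572 with a median of 261, and that of the 17 genes of the 19S particle from 126 to 488 with a median of 227. The highest of all was Psmb6, at 572 TPM, and the highest of the 19S particle was Psmd2, a scaffold of its base, at 488 TPM. The 7 chaperone genes lay at 37.4 to 58.6 TPM, Psmf1 at 41.1 TPM, and the activators between 34.0 TPM for Psme4 and 207 TPM for Psme2. The summed TPM of the 14 core genes was 3909 ± 105 (SD, n = 4) in WT with DMSO, 2937 ± 66.3 with torin1 and 3631 ± 93.7 after MK-8722. In DKO cells it was 3889 ± 64.9, 2996 ± 50 and 3779 ± 63.4 under the same treatments. The ranges of the torin1 libraries, 2882 to 3033 in WT and 2935 to 3047 in DKO, lay below those of every other group. For the 17 genes of the 19S particle the summed TPM was 4068 ± 73.1, 3301 ± 65.3 and 3893 ± 68.9 in WT, in the same order of treatments, and 4155 ± 80.4, 3482 ± 83.3 and 3984 ± 114 in DKO. TPM is a share of the library, which shows whether these genes took up less of the mRNA, not whether a cell held less.

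**Figure D1:**
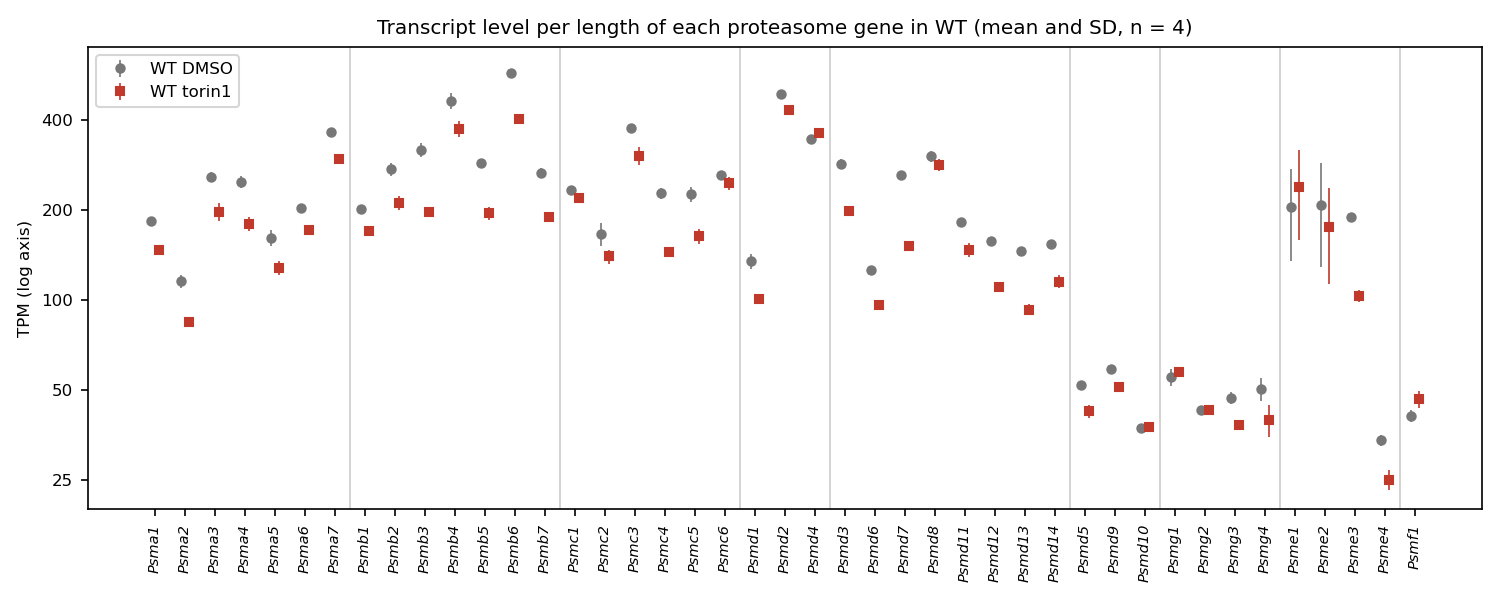
Mean TPM (log axis) of each of the 43 proteasome genes in WT cells with DMSO (grey circles) and with torin1 (red squares), with bars for the SD of 4 libraries. Core and 19S genes lay above chaperones and Psmf1, and most red squares lay below the grey circles, by the largest factor for Psme3 and Psmd7.

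Torin1 lowered most proteasome genes in both lines and raised none that passed the criteria. In WT cells 33 of the 43 members were called lower and 0 higher, where the background over all tested genes was 20.5% lower and 26.6% higher. The median log2 fold change of the members was -0.44, against 0.049 over all tested genes, and 41 of the 43 lay below 0. In DKO cells 26 members were called lower and 0 higher, where the background was 20.2% lower and 23% higher, and the median was -0.34 against 0.021. Psmf1 was the single member with an adjusted p under 0.05 in the higher direction, with a fold change under 1.2 in both lines. In bulk samples, fewer cells of a type and less RNA per cell cannot be told apart, and the values are shares of each library's mRNA.

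By role, all 14 core genes were called lower in WT and 12 in DKO, with medians of -0.48 and -0.39. Of the 17 genes of the 19S particle, 13 and 10 were called lower, with medians of -0.51 and -0.41. Within it the lid genes had the lowest medians, with 7 of 8 called lower in each line at -0.59 and -0.53, followed by the 6 ATPases, with 4 and 3 called and medians of -0.39 and -0.34. Of the 3 base genes without ATPase activity, Psmd1, Psmd2 and Psmd4, 2 were called in WT and 0 in DKO. The activators had 2 of 4 called lower in each line, and the assembly chaperones 4 of 7 in WT and 2 of 7 in DKO. Averaged over the core genes within each library, the log2 level relative to WT with DMSO was -0.50 ± 0.025 (SD, n = 4) with torin1 in WT and -0.39 ± 0.024 in DKO, against 0.032 ± 0.024 in DKO with DMSO. Within single passages the core average with torin1 minus DMSO was -0.46 to -0.53 in WT and -0.39 to -0.45 in DKO, and that of the 19S particle -0.42 to -0.50 and -0.35 to -0.40. In single genes, 39 of 43 members were lower with torin1 at every one of the 4 WT passages and 36 at every one of the 4 DKO passages. The share of all tested genes that were lower at every passage was not computed.

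**Figure D2:**
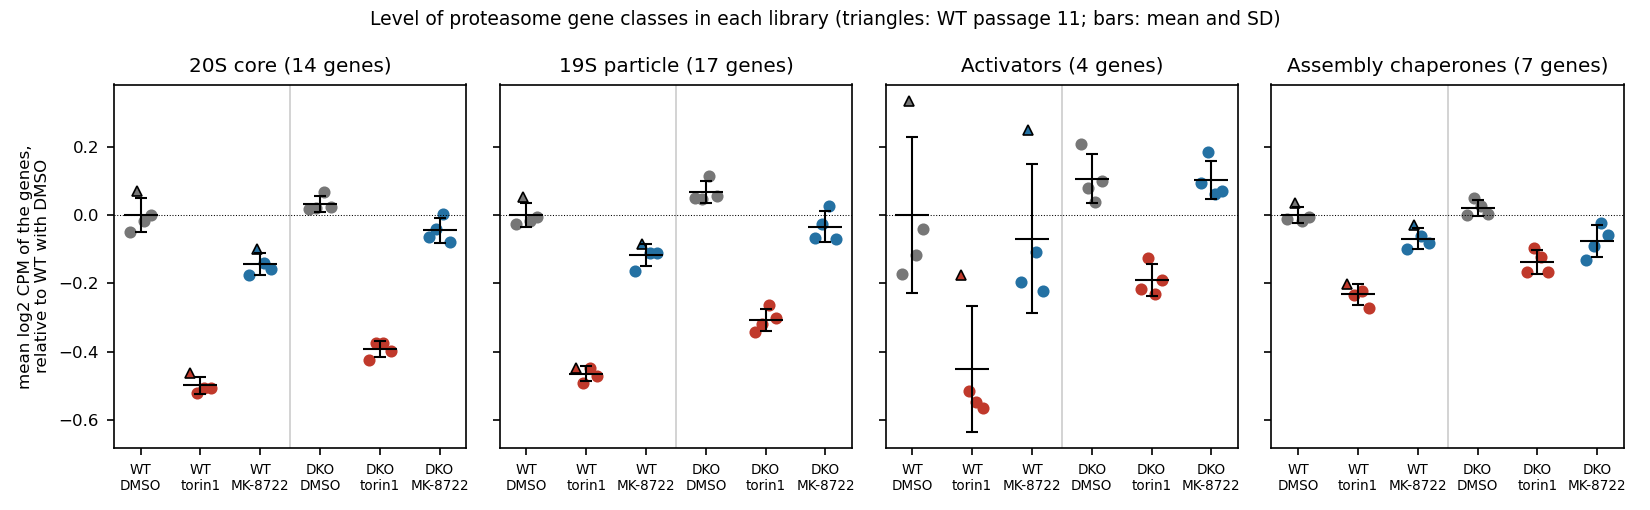
Mean log2 CPM of the genes of 4 classes in each library, relative to the mean of WT with DMSO (y axis, log2 units), by group (x axis), with bars for the mean and SD of 4 libraries and triangles for the WT libraries of passage 11. For the core and the 19S particle the torin1 libraries of both lines lay below all others. In the activator panel each triangle stood above the other WT libraries of the same treatment.

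**Figure D3:**
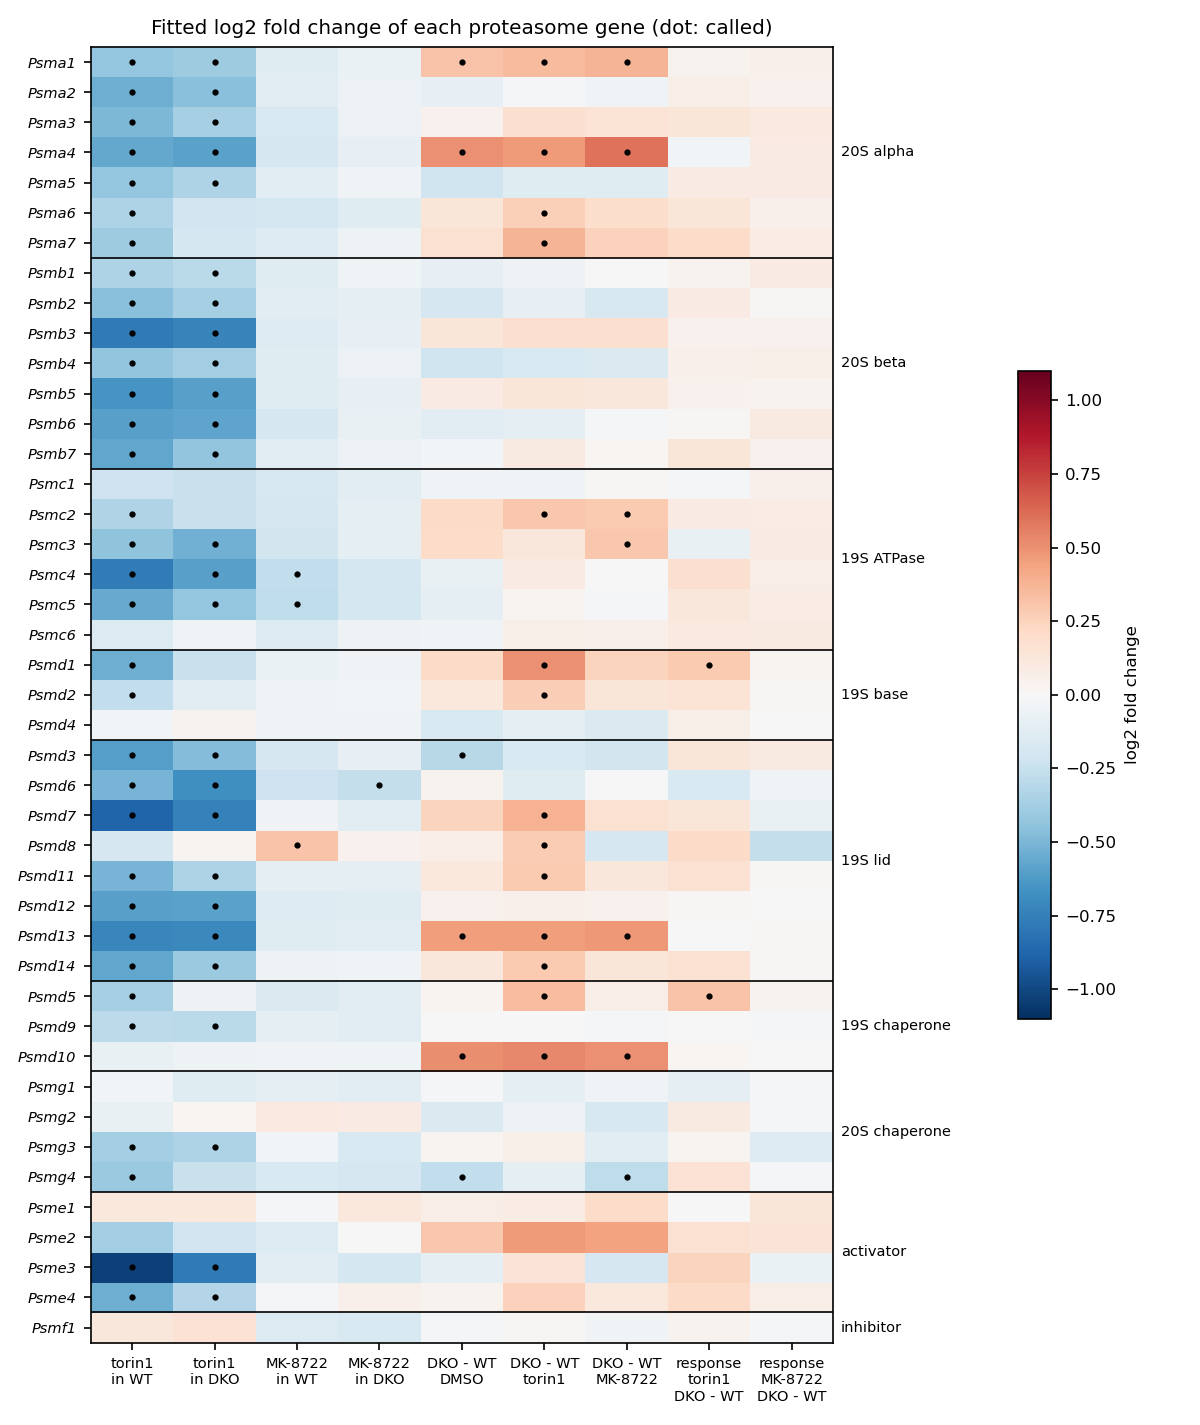
Fitted log2 fold change (colour) of the 43 proteasome genes (rows, by role) in 9 comparisons (columns), with a dot where the gene was called. The torin1 columns were blue for nearly all core and 19S genes, with 33 dots in WT and 26 in DKO, while the MK-8722 columns held 3 dots and 1.

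The catalytic core subunits fell with torin1 in both lines. Psmb5 (ENSMUSG00000022193, chr14:54614119-54618022, minus strand) encodes the chymotrypsin-like subunit. Psmb5 in WT cells stood at 132, 137, 138 and 139 CPM with DMSO, 81.3, 86.6, 89.6 and 91.2 CPM with torin1, and 122, 125, 125 and 128 CPM with MK-8722. Psmb5 in DKO cells stood at 139, 145, 146 and 151 CPM with DMSO, 95, 95, 95.1 and 98.4 CPM with torin1, and 132, 132, 139 and 142 CPM with MK-8722. In both lines the torin1 values lay below all DMSO and MK-8722 values, with no overlap. Psmb5 had a log2 fold change with torin1 of -0.65 ± 0.036 (SE, edgeR adjusted p 8.39e-13) in WT and -0.60 ± 0.036 (SE, edgeR adjusted p 3.15e-12) in DKO. The processed pseudogene Gm3375 is 98.9% identical to Psmb5 over 796 bases and held a mean of 640 counts, 18.9% of the Psmb5 mean, so that the split of reads between them is uncertain. Gm3375 moved the same way with torin1, by -0.74 in WT and -0.68 in DKO.

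Psmb6 (ENSMUSG00000018286, chr11:70525367-70527858, plus strand) encodes the caspase-like subunit and was the most abundant core gene per length. Psmb6 in WT cells stood at 243, 244, 246 and 247 CPM with DMSO, 157, 162, 164 and 166 CPM with torin1, and 208, 214, 218.8 and 221 CPM with MK-8722. Psmb6 in DKO cells stood at 219.3, 224, 228 and 236 CPM with DMSO, 149, 151, 151 and 154 CPM with torin1, and 204, 209, 220.1 and 223 CPM with MK-8722. The torin1 values were again the lowest of each line, and in WT the MK-8722 values also lay below the DMSO values. Psmb6 had a log2 fold change with torin1 of -0.59 ± 0.031 (SE, edgeR adjusted p 3.76e-13) in WT and -0.58 ± 0.031 (SE, edgeR adjusted p 6.21e-13) in DKO. Psmb7 (ENSMUSG00000026750, chr2:38588036-38644087, minus strand) encodes the trypsin-like subunit. Psmb7 in WT cells stood at 174, 183, 187 and 190.5 CPM with DMSO, 119.8, 124, 125 and 127 CPM with torin1, and 167, 168, 170.4 and 174 CPM with MK-8722. Psmb7 in DKO cells stood at 173, 175, 184 and 188 CPM with DMSO, 124, 133, 137 and 138 CPM with torin1, and 166, 169, 172 and 181 CPM with MK-8722. Its torin1 values were the lowest in both lines, and DKO and WT values overlapped under every treatment. Psmb7 had a log2 fold change with torin1 of -0.57 ± 0.039 (SE, edgeR adjusted p 2.37e-11) in WT and -0.44 ± 0.039 (SE, edgeR adjusted p 2.02e-09) in DKO. Psmb7 shares 255 bases with Nek6 on the opposite strand, whether the counting used strand was not given in the sources used here, and Nek6 was called lower with torin1 as well, at -0.48 and -0.78.

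Psmb3 (ENSMUSG00000069744, chr11:97703399-97713500, plus strand), a beta ring subunit without an active site, had the largest fall of the core genes. Psmb3 in WT cells stood at 128, 129, 131 and 146 CPM with DMSO, 75.7, 76.1, 78.8 and 81.1 CPM with torin1, and 119, 119, 122 and 124 CPM with MK-8722. Psmb3 in DKO cells stood at 142, 144, 145 and 153 CPM with DMSO, 83.7, 87.7, 89.1 and 91.0 CPM with torin1, and 134, 136, 138 and 142 CPM with MK-8722. The torin1 libraries of both lines lay well below the rest. Psmb3 had a log2 fold change with torin1 of -0.78 ± 0.040 (SE, edgeR adjusted p 2.34e-13) in WT and -0.73 ± 0.040 (SE, edgeR adjusted p 7.03e-13) in DKO. Psma4 (ENSMUSG00000032301, chr9:54950790-54958030, plus strand), an alpha ring subunit, was the core gene that differed most between the lines. Psma4 in WT cells stood at 153, 157, 159 and 173 CPM with DMSO, 105, 106, 109 and 114 CPM with torin1, and 137, 138, 139 and 150.4 CPM with MK-8722. Psma4 in DKO cells stood at 221, 223, 231 and 233 CPM with DMSO, 147, 149, 153 and 154 CPM with torin1, and 206, 213, 215 and 217 CPM with MK-8722. Under each treatment the 4 DKO values lay above the 4 WT values, and within each line torin1 gave the lowest. Psma4 had a log2 fold change with torin1 of -0.56 ± 0.039 (SE, edgeR adjusted p 3.39e-11) in WT and -0.59 ± 0.039 (SE, edgeR adjusted p 1.78e-11) in DKO. The other 9 core genes had log2 fold changes with torin1 of -0.34 to -0.53 in WT and -0.19 to -0.46 in DKO. Psma6 and Psma7 were the core genes not called in DKO, with adjusted p under 0.05 and fold changes under 1.2.

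In the base of the 19S particle a ring of ATPases unfolds the substrate. Psmc4 (ENSMUSG00000030603, chr7:28041707-28050101, minus strand) is one of these ATPases. Psmc4 in WT cells stood at 167, 168, 171 and 175 CPM with DMSO, 97.2, 98.2, 101.5 and 101.7 CPM with torin1, and 138, 139.6, 143 and 145 CPM with MK-8722. Psmc4 in DKO cells stood at 159, 160.2, 161 and 164 CPM with DMSO, 104, 105, 105 and 110.4 CPM with torin1, and 135, 141, 144 and 144 CPM with MK-8722. The 3 treatments gave 3 separate ranges in each line, with torin1 lowest, MK-8722 between, and DMSO highest. Psmc4 had a log2 fold change with torin1 of -0.77 ± 0.030 (SE, edgeR adjusted p 2.88e-15) in WT and -0.60 ± 0.030 (SE, edgeR adjusted p 1.76e-13) in DKO. Psmc5 (ENSMUSG00000020708, chr11:106256154-106263120, plus strand), a further ATPase of the ring, showed the same order. Psmc5 in WT cells stood at 169.7, 174, 180.1 and 193 CPM with DMSO, 114, 121, 125 and 129 CPM with torin1, and 137, 145, 148 and 161 CPM with MK-8722. Psmc5 in DKO cells stood at 165, 165, 166 and 172 CPM with DMSO, 118, 126, 126 and 128 CPM with torin1, and 139.9, 146, 149 and 151 CPM with MK-8722. Psmc5 had a log2 fold change with torin1 of -0.55 ± 0.047 (SE, edgeR adjusted p 9.8e-10) in WT and -0.43 ± 0.047 (SE, edgeR adjusted p 6.35e-08) in DKO. Of the other ATPase genes, Psmc2 was called lower with torin1 in WT and Psmc3 in both lines, and Psmc1 and Psmc6 in neither.

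Psmd1 (ENSMUSG00000026229, chr1:86064387-86139151, plus strand) encodes a large scaffold of the base. Psmd1 in WT cells stood at 223, 242, 248 and 259 CPM with DMSO, 163, 165, 171 and 173 CPM with torin1, and 215, 228, 234 and 246 CPM with MK-8722. Psmd1 in DKO cells stood at 262, 280.1, 285 and 300.2 CPM with DMSO, 233, 234, 235 and 249 CPM with torin1, and 234, 270.1, 287 and 304 CPM with MK-8722. With torin1 the WT values lay below those of all other groups, while the DKO values with torin1 overlapped those with MK-8722. Psmd1 had a log2 fold change with torin1 of -0.53 ± 0.062 (SE, edgeR adjusted p 1.32e-07) in WT and -0.25 ± 0.062 (SE, edgeR adjusted p 0.0017) in DKO. It passed the threshold on the adjusted p in DKO but not that on the fold change. Psmd4 (ENSMUSG00000005625, chr3:95032694-95042614, minus strand) encodes a receptor that binds ubiquitin chains, and was the 19S gene with the smallest fold change with torin1 in WT. Psmd4 in WT cells stood at 245, 248, 252 and 258 CPM with DMSO, 242, 245, 249 and 249.8 CPM with torin1, and 239, 242, 245 and 248 CPM with MK-8722. Psmd4 in DKO cells stood at 215, 224, 225 and 227 CPM with DMSO, 219.4, 231, 231 and 233 CPM with torin1, and 212, 217, 218 and 222 CPM with MK-8722. Within each line the 3 treatments overlapped, and the DKO values lay below the WT values under every treatment. Psmd4 had a log2 fold change with torin1 of -0.026 ± 0.027 (SE, edgeR adjusted p 0.435) in WT and 0.038 ± 0.027 (SE, edgeR adjusted p 0.255) in DKO. With library size alone the value in WT was 0.066.

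The lid of the 19S particle removes ubiquitin from the substrate. Psmd14 (ENSMUSG00000026914, chr2:61711694-61800376, plus strand) encodes its deubiquitinase. Psmd14 in WT cells stood at 114, 118, 118 and 125 CPM with DMSO, 77.2, 80.1, 80.7 and 81.2 CPM with torin1, and 107, 115, 116 and 119 CPM with MK-8722. Psmd14 in DKO cells stood at 127, 127, 128 and 136 CPM with DMSO, 95, 98.2, 98.3 and 98.5 CPM with torin1, and 119, 123, 129 and 131 CPM with MK-8722. The torin1 values were separate and lowest in each line, and those of DKO lay above those of WT. Psmd14 had a log2 fold change with torin1 of -0.57 ± 0.040 (SE, edgeR adjusted p 2.76e-11) in WT and -0.41 ± 0.039 (SE, edgeR adjusted p 7.1e-09) in DKO. Psmd7 (ENSMUSG00000039067, chr8:107580381-107588464, minus strand) encodes the partner of Psmd14 in the lid and had the largest fall of the 19S genes. Psmd7 in WT cells stood at 244, 249, 250.4 and 263 CPM with DMSO, 134, 135, 137 and 141 CPM with torin1, and 232, 247, 248 and 253 CPM with MK-8722. Psmd7 in DKO cells stood at 284, 296, 301 and 312 CPM with DMSO, 173, 176, 181 and 184 CPM with torin1, and 267, 270.3, 276 and 284 CPM with MK-8722. The torin1 values were the lowest of each line, with a wide gap to the other treatments, and DKO values exceeded WT values under each treatment. Psmd7 had a log2 fold change with torin1 of -0.88 ± 0.035 (SE, edgeR adjusted p 4.14e-15) in WT and -0.74 ± 0.035 (SE, edgeR adjusted p 6.59e-14) in DKO.

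Psmd11 (ENSMUSG00000017428, chr11:80428615-80473248, plus strand) encodes a lid subunit that holds core and 19S particle together. Psmd11 in WT cells stood at 199.6, 204, 206 and 210.4 CPM with DMSO, 142, 143, 144 and 148 CPM with torin1, and 182, 191, 193 and 195 CPM with MK-8722. Psmd11 in DKO cells stood at 214, 220.0, 221 and 234 CPM with DMSO, 173, 173, 174 and 182 CPM with torin1, and 199.9, 204, 207 and 218.8 CPM with MK-8722. Torin1 gave the lowest values in each line without overlap, and DKO exceeded WT under each treatment. Psmd11 had a log2 fold change with torin1 of -0.51 ± 0.034 (SE, edgeR adjusted p 1.49e-11) in WT and -0.34 ± 0.034 (SE, edgeR adjusted p 1.14e-08) in DKO. Psmd11 shares 1501 bases at 97.94% identity, on the opposite strand, with A730017L22Rik. This transcript held 4.77% of its mean count and was higher with torin1 (log2 fold change 1.02 in WT and 0.60 in DKO). Psmd13 (ENSMUSG00000025487, chr7:140881968-140898643, plus strand) is a structural lid subunit. Psmd13 in WT cells stood at 109, 111, 112 and 112 CPM with DMSO, 65.3, 65.9, 68.8 and 70.2 CPM with torin1, and 97.7, 98.3, 103 and 104 CPM with MK-8722. Psmd13 in DKO cells stood at 149, 151, 153 and 156 CPM with DMSO, 88.3, 91.5, 95.6 and 96.8 CPM with torin1, and 134, 135, 144 and 148 CPM with MK-8722. All 3 treatments gave separate ranges in each line, and every DKO value exceeded the WT values of the same treatment. Psmd13 had a log2 fold change with torin1 of -0.71 ± 0.038 (SE, edgeR adjusted p 4.75e-13) in WT and -0.71 ± 0.038 (SE, edgeR adjusted p 6.13e-13) in DKO. Sirt3 overlaps Psmd13 on the opposite strand with 6.60% of its mean count, and it was called higher with torin1, by 0.44 in both lines.

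Psmd3 (ENSMUSG00000017221, chr11:98682554-98695979, plus strand) is a structural lid subunit and was lower in DKO cells. Psmd3 in WT cells stood at 361, 371, 372 and 395 CPM with DMSO, 239, 245, 248 and 250.5 CPM with torin1, and 321, 329.9, 332 and 334 CPM with MK-8722. Psmd3 in DKO cells stood at 288, 301, 307 and 319 CPM with DMSO, 209.6, 220.1, 222 and 222 CPM with torin1, and 273, 281, 289.7 and 300.4 CPM with MK-8722. DKO values lay below WT values under each treatment, and torin1 gave the lowest values in each line. Psmd3 had a log2 fold change with torin1 of -0.61 ± 0.036 (SE, edgeR adjusted p 1.84e-12) in WT and -0.48 ± 0.036 (SE, edgeR adjusted p 1.14e-10) in DKO. Psmd6 (ENSMUSG00000021737, chr14:14112174-14120984, minus strand) is also structural. Psmd6 in WT cells stood at 92.4, 92.6, 93.4 and 96.4 CPM with DMSO, 63.1, 64.8, 65.9 and 69.3 CPM with torin1, and 75.6, 80.1, 81.0 and 83.5 CPM with MK-8722. Psmd6 in DKO cells stood at 91.7, 95.6, 97.1 and 99.8 CPM with DMSO, 57.6, 58.8, 61.9 and 62.0 CPM with torin1, and 75.4, 80.4, 80.9 and 82.9 CPM with MK-8722. The 3 treatments gave separate ranges in both lines, in the order torin1, MK-8722, DMSO from the lowest. Psmd6 had a log2 fold change with torin1 of -0.51 ± 0.039 (SE, edgeR adjusted p 1.71e-10) in WT and -0.68 ± 0.040 (SE, edgeR adjusted p 2.32e-12) in DKO. Psmd12, the remaining lid gene beside Psmd8, was called lower in both lines.

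Psmd8 (ENSMUSG00000030591, chr7:29174188-29180701, minus strand), a lid subunit that is added last during assembly of the lid, behaved unlike the others. Psmd8 in WT cells stood at 245, 256, 258 and 269.7 CPM with DMSO, 213, 226, 233 and 235 CPM with torin1, and 311, 317, 318 and 329 CPM with MK-8722. Psmd8 in DKO cells stood at 268, 269, 270.3 and 275 CPM with DMSO, 262, 279, 279 and 281 CPM with torin1, and 274, 279.9, 281 and 285 CPM with MK-8722. In WT the MK-8722 values lay above all DMSO values and the torin1 values below them, while in DKO the 3 treatments overlapped. Psmd8 had a log2 fold change with torin1 of -0.18 ± 0.034 (SE, edgeR adjusted p 6.98e-05) in WT and 0.026 ± 0.034 (SE, edgeR adjusted p 0.547) in DKO. With MK-8722 its log2 fold change was 0.31 ± 0.034 (SE, edgeR adjusted p 2.63e-07) in WT, where it was called higher, and 0.049 ± 0.034 (SE, edgeR adjusted p 0.35) in DKO.

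The genes for chaperones that assemble the particles and leave them afterwards had median log2 fold changes with torin1 of -0.29 in WT and -0.13 in DKO. Psmd5 (ENSMUSG00000026869, chr2:34849734-34874968, minus strand) encodes a chaperone of the 19S base that also holds the base off the core. Psmd5 in WT cells stood at 68.1, 68.6, 71.0 and 71.5 CPM with DMSO, 53.0, 54.0, 54.9 and 55.2 CPM with torin1, and 60.8, 62.7, 63.0 and 64.1 CPM with MK-8722. Psmd5 in DKO cells stood at 69.1, 71.6, 71.8 and 73.2 CPM with DMSO, 64.9, 68.3, 70.3 and 72.0 CPM with torin1, and 63.3, 64.4, 67.4 and 68.8 CPM with MK-8722. In WT the torin1 values were separate from the others, and in DKO they overlapped the DMSO values. Psmd5 had a log2 fold change with torin1 of -0.36 ± 0.035 (SE, edgeR adjusted p 6.09e-09) in WT and -0.052 ± 0.035 (SE, edgeR adjusted p 0.211) in DKO. Psmd10 (ENSMUSG00000031429, chrX:140948429-140956728, minus strand) encodes gankyrin, a chaperone of the base. Psmd10 in WT cells stood at 31.5, 31.7, 32.1 and 32.7 CPM with DMSO, 28.7, 30.5, 30.6 and 31.0 CPM with torin1, and 30.2, 31.0, 31.5 and 31.8 CPM with MK-8722. Psmd10 in DKO cells stood at 42.5, 44.2, 46.0 and 49.2 CPM with DMSO, 40.9, 41.8, 44.3 and 47.6 CPM with torin1, and 42.3, 42.4, 45.7 and 46.3 CPM with MK-8722. Every DKO value exceeded every WT value of the same treatment, and the treatments overlapped within DKO. Psmd10 had a log2 fold change with torin1 of -0.084 ± 0.048 (SE, edgeR adjusted p 0.141) in WT and -0.060 ± 0.048 (SE, edgeR adjusted p 0.301) in DKO. Psmg4 (ENSMUSG00000071451, chr13:34162964-34178173, plus strand), a chaperone of the alpha ring, had the lowest mean CPM of the members. Psmg4 in WT cells stood at 11.9, 12.2, 12.7 and 14.8 CPM with DMSO, 8.49, 9.18, 10.1 and 11.1 CPM with torin1, and 10.4, 10.8, 11.7 and 13.01 CPM with MK-8722. Psmg4 in DKO cells stood at 10.1, 10.7, 10.9 and 11.1 CPM with DMSO, 8.04, 8.92, 9.13 and 10.1 CPM with torin1, and 8.55, 9.35, 9.37 and 10.5 CPM with MK-8722. Its torin1 values lay below its DMSO values in both lines, and both overlapped those with MK-8722. Psmg4 had a log2 fold change with torin1 of -0.41 ± 0.092 (SE, edgeR adjusted p 0.000544) in WT and -0.24 ± 0.094 (SE, edgeR adjusted p 0.0301) in DKO. Of the others, Psmd9 and Psmg3 were called lower in both lines, and Psmg1 and Psmg2 in neither. Psmd9 shares 108 bases at 95.4% identity with Bpnt1, which held 81.8% of its mean count and was called lower with torin1 as well (-0.82 in WT and -0.90 in DKO).

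The activators bind the ends of the core in place of the 19S particle. Psme3 (ENSMUSG00000078652, chr11:101316213-101323537, plus strand) encodes a nuclear activator and had the largest fall of all 43 members. Psme3 in WT cells stood at 231, 233, 233 and 235 CPM with DMSO, 109, 109.8, 114 and 123 CPM with torin1, and 206, 214, 217 and 223 CPM with MK-8722. Psme3 in DKO cells stood at 203, 217, 217 and 229 CPM with DMSO, 119, 123, 128 and 134 CPM with torin1, and 177, 184, 196 and 202 CPM with MK-8722. In both lines the 3 treatments did not overlap. Psme3 had a log2 fold change with torin1 of -1.03 ± 0.048 (SE, edgeR adjusted p 6.14e-14) in WT and -0.78 ± 0.048 (SE, edgeR adjusted p 5e-12) in DKO. Psme4 (ENSMUSG00000040850, chr11:30771726-30880361, plus strand) encodes a large nuclear activator linked to the removal of acetylated histones. Psme4 in WT cells stood at 128, 128, 141 and 141 CPM with DMSO, 85.2, 88.6, 98.7 and 99.6 CPM with torin1, and 129, 131, 136 and 137 CPM with MK-8722. Psme4 in DKO cells stood at 133, 138, 139.6 and 144 CPM with DMSO, 106, 111, 111 and 114 CPM with torin1, and 135, 145, 147 and 152 CPM with MK-8722. Torin1 values were separate and lowest in each line, and MK-8722 values overlapped DMSO values. Psme4 had a log2 fold change with torin1 of -0.53 ± 0.050 (SE, edgeR adjusted p 4.46e-09) in WT and -0.33 ± 0.050 (SE, edgeR adjusted p 7.11e-06) in DKO.

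The pair Psme1 and Psme2 encode the interferon-inducible activator. Psme1 (ENSMUSG00000022216, chr14:55578123-55581529, plus strand) was highest in the WT libraries of passage 11. Psme1 in WT cells stood at 77.2, 81.7, 87.6 and 151 CPM with DMSO, 82.6, 87.2, 104 and 156 CPM with torin1, and 75.4, 82.8, 88.2 and 147 CPM with MK-8722. Psme1 in DKO cells stood at 95.2, 96.6, 105 and 121 CPM with DMSO, 105, 107, 115 and 127 CPM with torin1, and 101.7, 107, 116 and 129 CPM with MK-8722. All 6 groups overlapped, and the highest value of each WT group came from passage 11. Psme1 had a log2 fold change with torin1 of 0.11 ± 0.214 (SE, edgeR adjusted p 0.67) in WT and 0.12 ± 0.215 (SE, edgeR adjusted p 0.664) in DKO. Psme2 (ENSMUSG00000079197, chr14:55587441-55591113, minus strand) had the same pattern of libraries. Psme2 in WT cells stood at 65.9, 66.4, 75.8 and 137 CPM with DMSO, 52.0, 53.5, 60.8 and 99.5 CPM with torin1, and 61.1, 61.5, 69.9 and 118 CPM with MK-8722. Psme2 in DKO cells stood at 95.6, 102.1, 104 and 123 CPM with DMSO, 84.3, 89.3, 93.4 and 101 CPM with torin1, and 96.4, 101.98, 108 and 117 CPM with MK-8722. Psme2 had a log2 fold change with torin1 of -0.38 ± 0.228 (SE, edgeR adjusted p 0.161) in WT and -0.21 ± 0.227 (SE, edgeR adjusted p 0.456) in DKO. Without the 3 WT libraries of passage 11, Psme2 fell with torin1 in WT by 0.36 (edgeR adjusted p 0.00269) and its value in DKO was -0.20 (edgeR adjusted p 0.0396). Without them the value for Psme1 in WT was 0.12 (edgeR adjusted p 0.324). Libraries of the same line and passage deviated together from their group means more often than others, with 17 of 24 such pairs correlating over 0.1, and with passage as a block Psme2 was called lower in WT, at -0.36 (edgeR adjusted p 1.8e-09). In DKO the blocked value of Psme2 was -0.21 (edgeR adjusted p 4.93e-06), and those of Psme1 were 0.12 in both lines (edgeR adjusted p 0.00162 in WT and 0.00187 in DKO), with folds under 1.2. Psme1 was higher with torin1 than with DMSO at every passage of both lines. The same libraries were high in Psmb8 and in the summed interferon-stimulated genes, and the part of that difference in these values was not tested. Psme2b, a copy 99.4% identical to Psme2 over 794 bases, held 2.88% of its mean count.

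Psmf1 (ENSMUSG00000032869, chr2:151715812-151744186, minus strand) encodes an inhibitor of the core and was not lowered by torin1. Psmf1 in WT cells stood at 51.1, 53.5, 54.6 and 54.9 CPM with DMSO, 54.0, 56.6, 61.1 and 61.2 CPM with torin1, and 46.7, 48.4, 48.7 and 49.2 CPM with MK-8722. Psmf1 in DKO cells stood at 50.6, 53.3, 53.6 and 53.8 CPM with DMSO, 57.0, 58.1, 58.8 and 61.5 CPM with torin1, and 45.0, 46.1, 47.8 and 48.9 CPM with MK-8722. In both lines the torin1 values lay above all MK-8722 values, and in DKO also above all DMSO values. Psmf1 had a log2 fold change with torin1 of 0.12 ± 0.040 (SE, edgeR adjusted p 0.0126) in WT and 0.16 ± 0.041 (SE, edgeR adjusted p 0.0022) in DKO. With MK-8722 the log2 fold changes were -0.15 ± 0.041 (SE, edgeR adjusted p 0.00694) and -0.17 ± 0.041 (SE, edgeR adjusted p 0.00459). None of these 4 reached a fold change of 1.2.

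**Figure D4:**
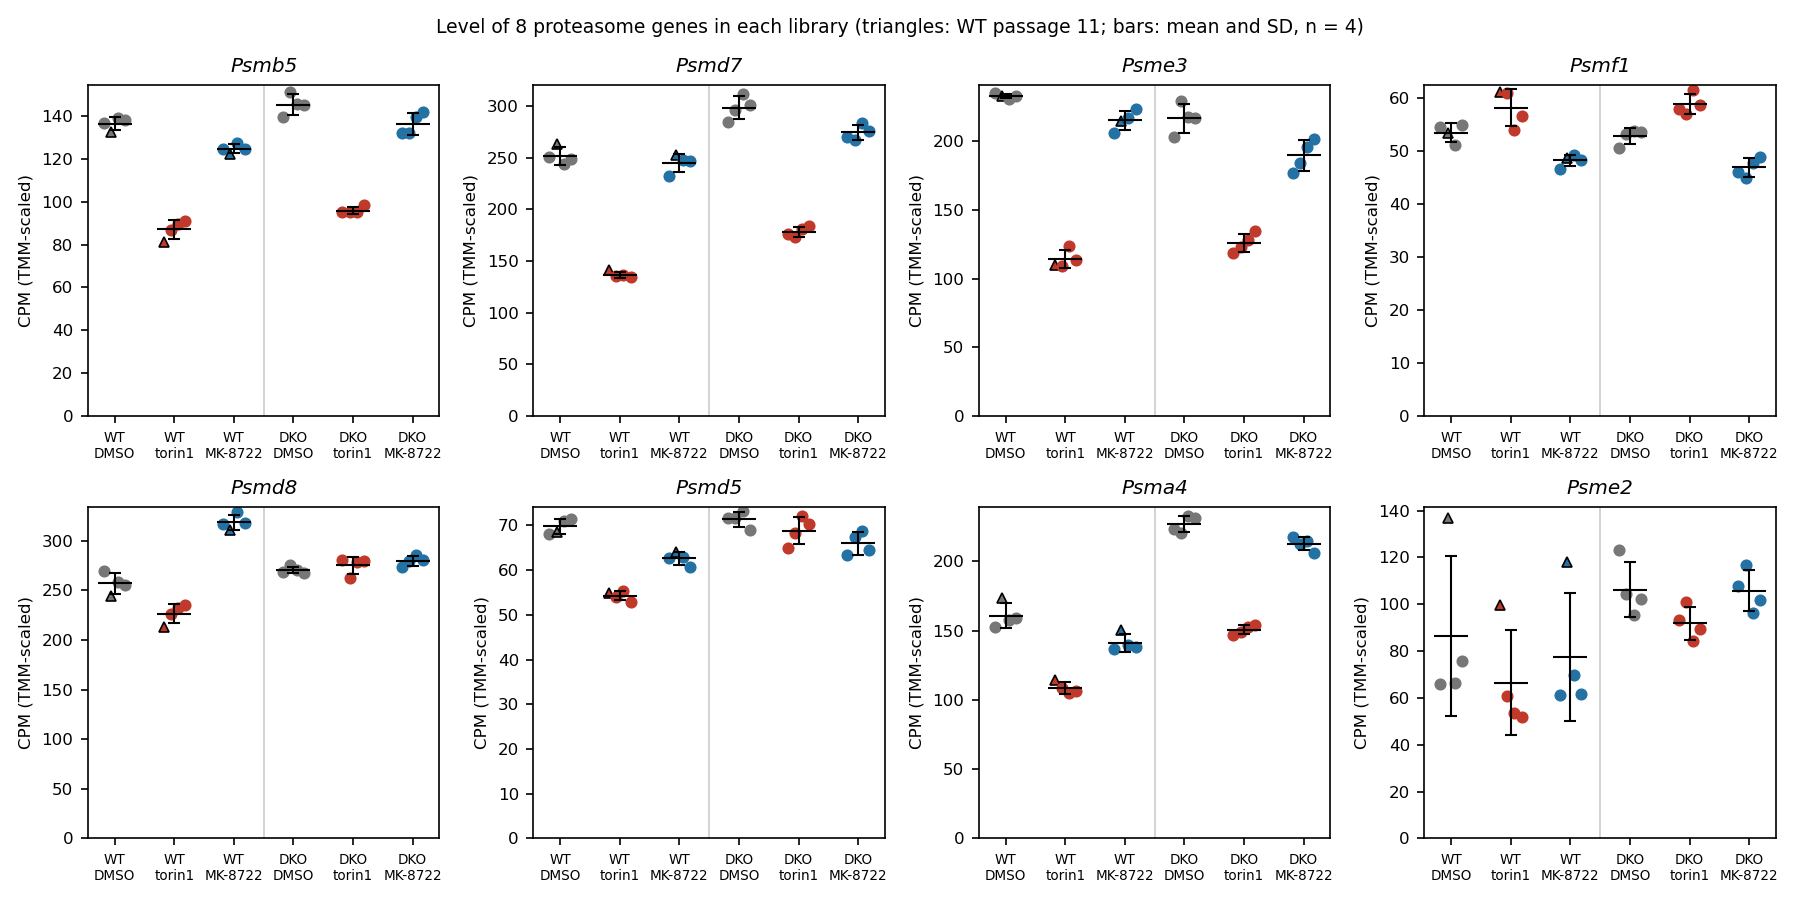
CPM (TMM-scaled, linear axes from 0) of 8 proteasome genes in each library, by group, with bars for the mean and SD of 4 libraries and triangles for the WT libraries of passage 11. Psmb5, Psmd7 and Psme3 were lowest with torin1 in both lines, Psmf1 had its highest means with torin1, Psmd8 rose with MK-8722 in WT, Psmd5 was lower with torin1 in WT, Psma4 was higher in DKO, and Psme2 was highest in the triangles of each WT group.

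The torin1 effect was compared between the lines, to ask which part of it differs in the line labelled as lacking TFEB and TFE3. All 26 members called lower in DKO were also called lower in WT, which is 78.8% of the WT list and the whole of the DKO list. The 7 called in WT alone were Psma6, Psma7, Psmc2, Psmd1, Psmd2, Psmd5 and Psmg4. Across the 43 genes, which are not independent replicates, the log2 fold changes of the lines had a Pearson correlation of 0.92 over libraries that share no sample. For 37 of the 43 the log2 fold change was higher in DKO than in WT. The overlap, the correlation and this count were not computed over all tested genes. Whether they are particular to proteasome genes was therefore not tested. In the test of the difference itself, 2 members were called, both with a smaller fall in DKO, where the background was 4.68% of tested genes higher and 6.33% lower in this direction, and the median difference was 0.087 against -0.005 over all genes. They were Psmd5, with a difference of 0.31 ± 0.049 (SE, edgeR adjusted p 0.00012), and Psmd1, with 0.29 ± 0.088 (SE, edgeR adjusted p 0.0292).

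By the adjusted p alone, 9 members had a higher log2 fold change with torin1 in DKO than in WT and 1 a lower one. The background was 7.44% and 7.63%. With a difference under a fold of 1.2 there were thus 8 more. Of these, Psma7, Psmc4, Psmd2, Psmd11, Psmd14 and Psme3 fell less in DKO and Psmd6 fell more. Psmd8, the remaining gene, fell in WT and was not lower in DKO. For Psme3 the difference was 0.25 ± 0.067 (SE, edgeR adjusted p 0.0138), and for Psmd6 it was -0.17 ± 0.056 (SE, edgeR adjusted p 0.0474). Neither Psmd5 nor Psmd1 was called when library size alone set the scale (0.25 and 0.23), and Psmd1 lost its call without DKO DMSO replicate 2 or 4, DKO torin1 replicate 3, WT torin1 replicate 2 or WT DMSO replicate 2 (edgeR adjusted p 0.0544 to 0.0708).

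**Figure D5:**
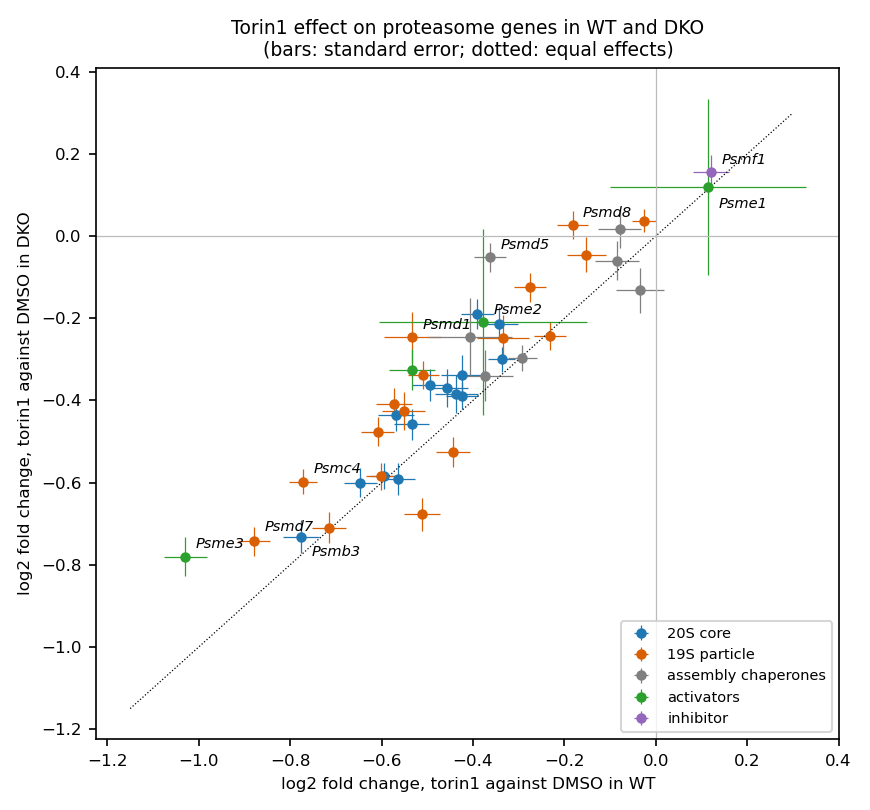
Log2 fold change with torin1 in WT (x axis) and in DKO (y axis) of the 43 proteasome genes, coloured by class, with bars for the standard error and a dotted line for equal effects. Points of 37 genes lay above the line, Psme3 lay farthest to the lower left, Psmd5 and Psmd1 lay above the line by 0.31 and 0.29, and the bars of Psme1 and Psme2 were the widest.

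MK-8722 moved the proteasome genes little. In WT, 1 member was called higher (Psmd8) and 2 lower (Psmc4 and Psmc5), where the background was 10.3% higher and 5.87% lower. The median was -0.13 against -0.015 over all tested genes, 41 of 43 members lay below 0, and 27 had an adjusted p under 0.05 in the lower direction, most with folds under 1.2, where 15.2% of tested genes did. Psmc4 changed by -0.27 ± 0.029 (SE, edgeR adjusted p 2.68e-07) and Psmc5 by -0.28 ± 0.047 (SE, edgeR adjusted p 9.3e-05), and both lost their call without the DMSO library of passage 11, at -0.26 and -0.24. All 14 core genes lay between -0.11 and -0.19. In DKO, 0 members were called higher and 1 lower, Psmd6 at -0.27 ± 0.039 (SE, edgeR adjusted p 7.19e-05), where the background was 5.47% higher and 3.21% lower. The Psmd6 call was lost with DESeq2 size factors, at -0.26. The median was -0.090 against 0.000, and 14 members had an adjusted p under 0.05 in the lower direction, where 10.3% of tested genes did. In the test of the difference between the lines, 0 members were called in either direction, with a background of 1.42% higher and 4.08% lower, and Psmd8 alone had an adjusted p under 0.05, at -0.26 ± 0.048 (SE, edgeR adjusted p 0.000872), with a fold just under 1.2.

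Torin1 and MK-8722 were also set against each other, a comparison that shares its libraries with those above. In WT, 25 members were lower and 1 higher with torin1 than with MK-8722, where the background was 20% lower and 24.9% higher, and the median was -0.30. In DKO, 21 were lower and 1 higher, with a background of 19.3% and 21.1% and a median of -0.25. The 1 higher member was Psmf1 in both lines, at 0.27 ± 0.041 (SE, edgeR adjusted p 5.36e-06) and 0.33 ± 0.041 (SE, edgeR adjusted p 4.29e-07). Its call in WT was lost without the 3 WT libraries of passage 11, at 0.23. Psmd8 was lower with torin1 than with MK-8722 in WT, at -0.49 ± 0.034 (SE, edgeR adjusted p 4.32e-11), and in DKO its difference was -0.023 ± 0.034 (SE, edgeR adjusted p 0.597).

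Between the lines the calls among proteasome genes were few with DMSO and with MK-8722, and more were higher in DKO with torin1. With DMSO, 4 members were called higher in DKO (Psma1, Psma4, Psmd10 and Psmd13) and 2 lower (Psmd3 and Psmg4), where the background was 23.5% higher and 24.6% lower. With torin1, 14 were called higher and 0 lower, where the background was 24% and 27.8%. With MK-8722, 6 were called higher and 1 lower (Psmg4), where the background was 23.3% and 25.4%. The same 4 genes, Psma1, Psma4, Psmd10 and Psmd13, were higher under all 3 treatments. For Psma4 the log2 fold changes were 0.50 ± 0.039, 0.47 ± 0.039 and 0.59 ± 0.039 (SE) with DMSO, torin1 and MK-8722. For Psmd10 they were 0.51 ± 0.048, 0.53 ± 0.048 and 0.51 ± 0.048, and for Psmd13 0.46 ± 0.038, 0.46 ± 0.038 and 0.47 ± 0.038. Psmd3 differed by -0.30 ± 0.035 (SE, edgeR adjusted p 1.13e-07) with DMSO, and Psmg4 by -0.27 ± 0.092 (SE, edgeR adjusted p 0.0149), a call that was lost without the WT DMSO library of passage 11.

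These genotype differences depend on the scale. With library size alone the median of all genes shifted by -0.128 in DKO against WT under torin1, and the members' median moved from 0.10 to -0.025 with it. Relative to the median of all genes it was 0.139 with either scale. This value could hardly differ, because a change of scale shifts all genes nearly alike. The calls under torin1 were then 4 higher and 2 lower, where the background was 17.1% higher and 36.5% lower. With the usual scale and a minimum of 10 counts in every library, 8 were called higher, where the background was 24.3%. Under DMSO the median moved from 0.035 to -0.036, and under MK-8722 from 0.050 to -0.025. Without the 3 WT libraries of passage 11 the activator pair was called higher in DKO under each treatment. Psme1 was then higher by 0.32 (edgeR adjusted p 0.00724) with DMSO, 0.33 (edgeR adjusted p 0.00518) with torin1 and 0.45 (edgeR adjusted p 0.000419) with MK-8722. Psme2 was higher by 0.58 (edgeR adjusted p 5.61e-06), 0.74 (edgeR adjusted p 2.07e-07) and 0.70 (edgeR adjusted p 4.94e-07). With all libraries neither passed the test, at 0.073 ± 0.215 and 0.30 ± 0.227 (SE) under DMSO. With all libraries and passage as a block, Psme2 was called higher at 0.30 (edgeR adjusted p 0.0408), 0.47 (edgeR adjusted p 0.00302) and 0.45 (edgeR adjusted p 0.00432), and Psme1 was not called.

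Further genes of the pathway that the name rule did not take in were read from lists. The 3 immunoproteasome genes Psmb8, Psmb9 and Psmb10, which replace the catalytic subunits in immune and interferon-treated cells, had 0 calls with torin1 or MK-8722 in either line, with all libraries or without the 3 WT libraries of passage 11. With passage as a block, Psmb9 was called higher with torin1, at 0.65 (edgeR adjusted p 0.000358) in WT and 0.57 (edgeR adjusted p 0.00222) in DKO. Between the lines the calls rested on the passage 11 libraries. With all libraries only Psmb10 under MK-8722 was called higher in DKO, and without the 3 libraries Psmb8 was higher by 1.02 (edgeR adjusted p 0.000777) and Psmb10 by 1.21 (edgeR adjusted p 2.28e-07) with DMSO, both were called with torin1, and all 3 genes with MK-8722. Of 18 other proteasome genes 17 were tested and Paaf1 was not used here. With torin1 9 of them were called lower and 2 higher in WT, and 6 lower and 1 higher in DKO, where the background was 20.5% lower and 26.6% higher in WT and 20.2% and 23% in DKO. Those lower in both lines included Pomp, which assembles the core (-0.52 ± 0.044 in WT and -0.34 ± 0.044 in DKO, SE), Adrm1, a ubiquitin receptor (-0.53 ± 0.037 and -0.40 ± 0.037), and Sem1, a small lid subunit (-0.45 ± 0.030 and -0.43 ± 0.030). Zfand2a, which binds the 19S particle under arsenite stress, was called higher with torin1 in both lines (0.59 ± 0.096 and 0.50 ± 0.095) and with MK-8722 in WT (0.96 ± 0.096).

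Of 12 genes on the route that makes, processes and partners NFE2L1, 7 were called lower and 3 higher with torin1 in WT, and 7 lower and 1 higher in DKO, against the same background. Nfe2l1 itself, which activates proteasome genes, was lower (-0.61 ± 0.050 in WT and -0.65 ± 0.050 in DKO, SE). Also lower were Nfe2l2, its relative (-0.52 ± 0.055 and -0.60 ± 0.055), Ddi2, the protease that cuts it free (-0.40 ± 0.069 and -0.52 ± 0.070), and Vcp, the ATPase that pulls it from the membrane (-0.60 ± 0.037 and -0.48 ± 0.037). Ngly1, which removes its sugars, was higher (0.70 ± 0.058 and 0.72 ± 0.060). Its dimer partners Maff and Mafg were higher with MK-8722 in WT (1.03 ± 0.092 and 0.96 ± 0.071). Of 6 genes for ubiquitin and its activating enzymes, Ubb was called higher with torin1 in both lines (0.32 ± 0.045 and 0.39 ± 0.045) and Uba1 lower in WT (-0.30 ± 0.026). The 12 interferon-stimulated genes had 0 calls with either drug in either line when all libraries were fitted without a block. Without the 3 WT libraries of passage 11, 5 were called higher with torin1 and 1 with MK-8722 in WT, and 4 were higher and 1 lower with torin1 and 6 higher with MK-8722 in DKO. The background was then 24.3% higher with torin1 and 9.32% with MK-8722 in WT. In DKO it was 24.8% higher and 19.5% lower with torin1 and 6.53% higher with MK-8722. With passage as a block, 8 were higher and 1 lower with torin1 in WT and 7 higher and 1 lower in DKO, and with MK-8722 6 and 8 were higher. The background with this block was 28.5% higher and 21.2% lower with torin1 in WT and 24.9% and 20.9% in DKO. With MK-8722 it was 11.6% higher in WT and 7.49% in DKO. In DKO against WT under DMSO 3 were called higher with all libraries, where the background was 23.5%, and 11 without the passage 11 libraries, where 22% of tested genes were.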

How the data were processed

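mRNA of 24 libraries was sequenced as pairs of 52 bases. The authors ran nf-core/rnaseq with STAR and salmon on GRCm38 (Ensembl annotation), considered unique molecular identifiers, and deposited estimated counts of genes and, for transcripts, estimated counts, TPM and effective lengths. The deposited estimated counts, not scaled for depth or length, were rounded. They were fitted with edgeR 4.0.16 in R 4.3.3 (TMM, filterByExpr with a minimum count of 10, quasi-likelihood test, all 24 libraries in 1 fit with 1 mean per group, Benjamini-Hochberg adjustment over 15401 genes). A call required both a fold change of 1.2 or more and an adjusted p below 0.05. The biological coefficient of variation was 10.7% with 18 residual degrees of freedom. TPM entered no test. The authors' methods remove a batch effect with limma, but the labels hold a single batch, so none was removed. The members and lists were chosen with earlier results of these data known. Library values were given for Psmb5, Psmb6, Psmb7, Psmc4, Psmd4, Psmd11, Psmd14, the Psme genes, Psmf1 and the 3 largest called changes in each direction of each comparison. The script was tested on simulated data. Coordinates are from GENCODE M21 on GRCm38. Alternatives were other filters, scalings, DESeq2 1.42.0, a length offset, blocks and left-out libraries.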

Additional observations from a re-analysis of the deposited data

Results flagged for a closer look

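Of 144 groups of 4 libraries tested for the 24 genes given in every library, 12 held a library with a gap to the nearest other library larger than Dixon's 95% limit, where chance gives about 1 in 20. In DKO cells with torin1 these were Psmb5 at 98.4 CPM and Psmd3 at 209.6 CPM in replicate 4, Psmd1 at 248.5 CPM and Psmd11 at 182.5 CPM in replicate 3, Psmd4 at 219.4 CPM and Psmd8 at 262.3 CPM in replicate 2, and Psmd14 at 95.01 CPM in replicate 1. In DKO cells with DMSO they were Psmd14 at 136.2 CPM in replicate 3 and Psmf1 at 50.6 CPM in replicate 1. The other 3 were libraries of passage 11, Psme1 at 151.1 CPM and Psme2 at 137.0 CPM in WT DMSO replicate 2 and Psme2 at 118.2 CPM in WT MK-8722 replicate 2.

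The response differed between the lines, by edgeR's test of the difference itself at an adjusted p under 0.05, for 10 members with torin1 and 1 with MK-8722. Of all tested genes, 7.44% passed in the higher and 7.63% in the lower direction with torin1. With MK-8722 these shares were 2.06% and 4.77%. With torin1 the log2 differences (DKO response minus WT response) were 0.20 for Psma7, 0.17 for Psmc4, 0.29 for Psmd1, 0.17 for Psmd11, 0.16 for Psmd14, 0.15 for Psmd2, 0.31 for Psmd5, -0.17 for Psmd6, 0.21 for Psmd8 and 0.25 for Psme3. With MK-8722 the difference was -0.26 for Psmd8.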

How the results depend on the processing

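The torin1 calls among proteasome genes in WT and DKO stayed within 1.5 times of their counts of lower genes under all alternatives, and no named gene that was called changed sign, while values of genes that were not called did so 142 times of 5400, such as Psmd4 with torin1 in WT, at 0.066 with library size alone. Values of single named genes lost a call 34 times and gained one 96 times under the alternatives, and 20 and 28 times with 1 library left out. The causes of the following changes were not tested. With library size alone the median log2 fold changes were -0.345 and -0.303 with torin1 in WT and DKO, -0.036, -0.025 and -0.025 in DKO against WT with DMSO, torin1 and MK-8722, 0.03 for the torin1 response and -0.219 for torin1 against MK-8722 in WT. The calls were then 1 lower with MK-8722 in WT, 0 in DKO, 4 lower in DKO against WT with DMSO, 4 higher and 2 lower with torin1, 2 lower with MK-8722, 0 higher for the torin1 response and 1 lower for the MK-8722 response. On this scale 29.1%, 36.5% and 29.9% of all tested genes were lower in DKO against WT with DMSO, torin1 and MK-8722. By adjusted p alone, 1 was higher with torin1 in each line, 27 and 14 lower with MK-8722, 15, 22 and 17 higher and 11, 6 and 9 lower in DKO against WT, 9 higher and 1 lower for the torin1 response, 1 lower for the MK-8722 response and 2 higher for torin1 against MK-8722 in DKO. Of all tested genes, 31.2%, 31.2% and 30.6% were then higher and 31.9%, 34.9% and 32.5% lower in DKO against WT. Psmd6, the 1 gene lower with MK-8722 in DKO, was lost (0 calls) with a minimum of 10 counts in every library, DESeq2 size factors, the DESeq2 Wald test, the length offset and without the 3 WT libraries of passage 11. Psmf1, higher with torin1 than MK-8722, was lost in WT (0) without a filter, with DESeq2 size factors, the Wald test, the length offset or without passage 11, and in DKO (0) with the length offset. The length offset left 1 lower with MK-8722 in WT, and it or no filter gave 1 lower for the MK-8722 response. The stricter filter left 8 higher in DKO with torin1. In DKO against WT with DMSO, 1 was lower without a filter, with the replicate block or without passage 11, and with MK-8722 0 without passage 11. The replicate block changed no other count by over 1.5 times, the passage block none, and same-numbered libraries did not pair: 13 of 60 pairs correlated over 0.1 (-0.414 to 0.657), and 0 of 24 libraries correlated best with their number. Leaving out passage 11, and refitting the immunoproteasome and interferon lists without it and with the passage block, were chosen after the data were seen. Leaving out 1 library gave medians of -0.506 (without WT torin1 replicate 1) to -0.41 with torin1 in WT, 0.086 to 0.141 (without DKO torin1 replicate 1) in DKO against WT with torin1, 0.059 to 0.156 (without WT torin1 replicate 1) for the torin1 response and -0.362 (without WT torin1 replicate 1) to -0.282 for torin1 against MK-8722 in WT. Calls ranged from 0 (without WT DMSO replicate 2; 1 without WT MK-8722 replicate 1) to 2 lower with MK-8722 in WT, and from 0 (without DKO MK-8722 replicate 2 or DKO DMSO replicate 2 or 3) to 1 in DKO. With DMSO, DKO against WT gave 4 to 7 higher (7 without WT DMSO replicate 2) and 1 (without that library or DKO DMSO replicate 4) to 2 lower, and with MK-8722 0 (without DKO MK-8722 replicate 1 or WT MK-8722 replicate 2) to 1 lower. The torin1 response gave 1 (without WT torin1 replicate 2, DKO torin1 replicate 3, WT DMSO replicate 2 or DKO DMSO replicate 4) to 4 higher (without WT torin1 replicate 3), the MK-8722 response 0 to 1 lower (without WT DMSO replicate 1, DKO MK-8722 replicate 3 or DKO DMSO replicate 4), and torin1 against MK-8722 in WT 0 (without WT torin1 replicate 1 or 2 or WT MK-8722 replicate 1) to 1 higher.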

Other observations

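Psmb10 was higher in DKO than in WT with MK-8722, by 1.02 on the log2 scale, while the 3 WT libraries of passage 11 held summed immunoproteasome levels, without TMM scaling, of 137.4 to 165.9 CPM, above the 68.3 to 102.5 CPM of the 12 DKO libraries.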
